A study of Mus musculus with 8 samples.

Results

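The insulin-like growth factor 1 (IGF1) axis and the IGF binding proteins were followed here through 10 genes of 53801 in the count table, picked by symbol: the ligand gene Igf1, the receptor genes Igf1r and Igf2r, the binding protein genes Igfbp2, Igfbp3, Igfbp4, Igfbp5, Igfbp6 and Igfbp7, and the adaptor gene Irs2. All 10 were found, had reads, and were among the 15283 genes with an adjusted p. The cells were PDGFRα+ PDPN+ stromal cells, negative for the leukocyte marker CD45 and the endothelial marker CD31, sorted by flow cytometry from MO5 tumours. MO5 is a B16 mouse melanoma line that expresses ovalbumin, and it had been implanted under the skin of young adult ADAM12-GFP mice on a C57BL/6 background. These mice carry a bacterial artificial chromosome in which Adam12 control sequences drive Cre and GFP. Both groups therefore came from tumour-bearing reporter mice, and were separated by reporter state: 4 libraries were GFP+ (ADAM12+) and 4 were GFP- (ADAM12–). The labels do not say whether a library came from 1 mouse, so p-values describe the spread between these libraries.

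IGF1 is a secreted growth factor that activates the receptor tyrosine kinase IGF1R, which signals through adaptors such as IRS2 to PI3K and AKT. IGF2R, which has no kinase, binds mainly IGF2 and carries it to lysosomes. IGFBP2 to IGFBP6 bind IGFs with high affinity outside the cell and hold them away from the receptor or release them near it, mostly after cleavage by proteases, whereas IGFBP7 binds IGFs weakly. Fibroblasts are a major local source of IGF1 and of several of these binding proteins in connective tissue.

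Total counts per library ran from 883144 in GFP- replicate 3 to 31666734 in GFP+ replicate 4, so values of the former carry the largest counting error. Adam12, the gene read by the reporter, had 1693, 1605, 1231 and 920 normalised counts in GFP- replicates 1 to 4 and 1833, 2396, 2039 and 2938 in GFP+ replicates 1 to 4. Every GFP+ library was above every GFP- library (log2 fold change 0.75 ± 0.24 SE, DESeq2 adjusted p = 0.0266), and both groups held Adam12 transcripts. The sort markers were present in every library, with Pdgfra from 4706 to 16246 and Pdpn from 1609 to 3848 normalised counts. Of 9 fibroblast markers 7 were higher in GFP+ cells and 0 lower. Their median log2 fold change was 0.99, and the GFP+ mean of their sum was 1.57 times the GFP- mean. All 10 melanocyte and melanoma markers were lower in GFP+ cells, and their summed normalised count was 25106 to 74149 in GFP- libraries and 4514 to 11739 in GFP+ libraries. In bulk samples, fewer cells of a type cannot be told apart from less RNA per cell.

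The ligand gene, 3 of its binding partners and the adaptor differed between the groups, while both receptors did not pass the test. The call of the adaptor gene was fragile, and held under only 7 of 21 other analysis settings. With DESeq2 and an adjusted p under 0.05 over all genes tested, Igf1, Igfbp3, Igfbp7 and Irs2 were higher in GFP+ cells and Igfbp2 was lower. The other 5 members were not called. This is 4 of 10 members higher and 1 lower, against 4.66% of all genes tested called higher and 4.76% called lower, 9.42% in all. With edgeR 3 members were called higher and 1 lower (background 4.37%), and with limma voom 4 and 1 (background 3.23%). Both of these backgrounds are over 29043 genes, not the 15283 of DESeq2, so they cannot be set against its 9.42%. After filterByExpr, an expression filter that left 14323 genes, edgeR called 732 and limma voom 1289. The median log2 fold change of the members was 0.38, and that of all genes tested was -0.0082. In 4 members the groups did not overlap, 3 higher and 1 lower, as was so for 12.3% of all genes tested, 6.37% higher and 5.95% lower.

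**Figure D1:**
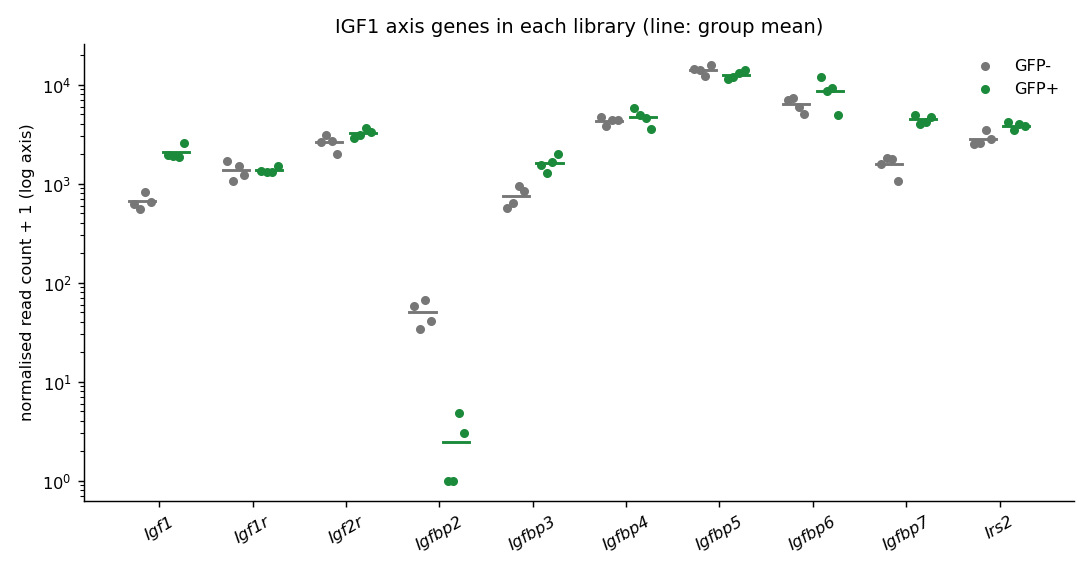
Normalised read count plus 1, on a log axis, of each of the 10 genes in the 4 GFP- (grey) and 4 GFP+ (green) libraries, with a line at each group mean. Igf1, Igfbp3 and Igfbp7 lie wholly higher in GFP+ libraries and Igfbp2 wholly lower, and the points of the other 6 genes overlap.

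The stretch of 250 bases before the RefSeq transcription start (GRCm38.p6) is shown for called members that moved in opposite directions, read 5′ to 3′ on the gene's strand, so that the higher genes can be set beside the lower one. The Igf1 window lies in an exon of a longer annotated transcript and is not shown. Igfbp2 has 2 RefSeq starts, and the window of the more upstream one is shown. Capitals mark a match, on either strand, to GGGCGG (GC box) or CCAAT.
Igfbp3, higher, chr11:7213924-7214173, minus strand: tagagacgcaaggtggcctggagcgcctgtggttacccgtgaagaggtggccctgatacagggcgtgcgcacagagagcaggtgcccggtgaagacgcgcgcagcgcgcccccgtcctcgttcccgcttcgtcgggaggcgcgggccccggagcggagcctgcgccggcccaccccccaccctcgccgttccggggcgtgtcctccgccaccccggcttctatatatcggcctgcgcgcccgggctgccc
Igfbp7, higher, chr5:77408046-77408295, minus strand: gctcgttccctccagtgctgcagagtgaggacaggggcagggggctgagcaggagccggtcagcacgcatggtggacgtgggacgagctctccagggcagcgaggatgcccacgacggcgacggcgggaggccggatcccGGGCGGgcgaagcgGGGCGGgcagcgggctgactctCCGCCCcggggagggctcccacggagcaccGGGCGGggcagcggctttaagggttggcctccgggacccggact
Irs2, higher, chr8:11008930-11009179, minus strand: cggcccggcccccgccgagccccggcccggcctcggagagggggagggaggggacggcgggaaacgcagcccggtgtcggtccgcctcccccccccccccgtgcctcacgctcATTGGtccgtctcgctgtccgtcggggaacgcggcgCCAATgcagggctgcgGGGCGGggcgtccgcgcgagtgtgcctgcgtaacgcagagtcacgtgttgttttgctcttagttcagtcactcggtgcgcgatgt
Igfbp2, lower, chr1:72824230-72824479, plus strand: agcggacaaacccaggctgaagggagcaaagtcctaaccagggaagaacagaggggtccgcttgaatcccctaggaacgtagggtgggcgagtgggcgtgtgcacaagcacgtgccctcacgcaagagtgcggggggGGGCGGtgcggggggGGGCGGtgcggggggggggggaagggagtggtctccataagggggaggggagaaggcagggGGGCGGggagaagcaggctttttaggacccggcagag

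These windows were rich in CG dinucleotides, with 32 in Igfbp3, 26 in Igfbp7, 34 in Irs2 and 14 in Igfbp2, against a median of 6 over 32851 RefSeq windows of that length. GGGCGG was found 4 times before Igfbp7, 3 times before Igfbp2 and 1 time before Irs2, and 32.7% of all windows held it. CCAAT was found 2 times before Irs2, and 33.8% of all windows held it. TATAAA, the AP-1 motif TGANTCA, the STAT motif TTCNNNGAA and the FOXO motif GTAAACA had no match in these 4 windows, and were held by 12.4%, 6.75%, 7.02% and 3.17% of all windows. The Igfbp3 window matched none of the 6 motifs. The Irs2 window lies inside 9530052E02Rik, a non-coding transcript of the opposite strand.

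The ligand came first among the members by adjusted p. Igf1 (ENSMUSG00000020053, chr10:87858265-87937042, plus strand, GRCm38) had 616, 550, 824 and 655 normalised counts in GFP- replicates 1 to 4. In GFP+ replicates 1 to 4 it had 1943, 1885, 1864 and 2543. The lowest GFP+ library was more than double the highest GFP- library, and GFP+ replicate 4 stood above the other 3. The group means were 661 ± 117 (SD, n = 4) and 2059 ± 325 (SD, n = 4), a 3.18-fold difference (log2 fold change 1.67 ± 0.19 SE, DESeq2 adjusted p = 3.24e-15). An antisense gene, Igf1os, overlaps Igf1 and was not called (log2 fold change 0.34 ± 1.42 SE), with means of 7.37 and 8.65 normalised counts. Macrophages also make IGF1: of 12 macrophage and monocyte markers 0 were called by DESeq2, and their summed normalised count was 1452 to 7208 in GFP- and 1261 to 5606 in GFP+ libraries. That sum was highest in GFP- replicate 3, also the highest GFP- library for Igf1, and in GFP+ replicate 2, which was not the highest GFP+ library for Igf1. The adipocyte list was also higher in GFP+ cells: its summed normalised count was 1924 to 2534 in GFP- and 5885 to 11184 in GFP+ libraries. It was highest in GFP+ replicate 4, where Igf1 was also highest. In GFP+ replicates 1 to 3 the sum rose (5885, 6482 and 6618) while Igf1 fell slightly. Among GFP- libraries the sum was highest in replicate 1 and Igf1 in replicate 3. Of its 7 genes 4 were tested, and 2 were called higher and 0 lower by DESeq2, the lipoprotein lipase gene Lpl (log2 fold change 1.74 ± 0.22 SE, DESeq2 adjusted p = 1.17e-12) and the fatty acid carrier gene Fabp4 (2.10 ± 0.55 SE, DESeq2 adjusted p = 0.00291). Lpl made up most of the sum, and the defining marker Adipoq had at most 4.03 normalised counts. Plin1, the other defining marker, had 0, 0, 0 and 1.58 in GFP- and 8.33, 1.67, 18.4 and 17.8 in GFP+ replicates, so that the groups did not overlap, but it was not called (log2 fold change 3.88 ± 1.59 SE, DESeq2 adjusted p = 0.112). The part of macrophages or adipocytes in the Igf1 values was not tested.

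Over the 8 libraries, the 3 genes with the profile most like that of Igf1 were Cygb, Svep1 and Ephb2. The measure was the root mean square difference between centred log2(normalised count + 1) profiles, over the 8812 genes whose normalised counts averaged 100 or more. Cygb, which encodes the globin cytoglobin, differed by 0.149. It had means of 810 ± 153 and 2560 ± 360 (SD, n = 4 each). Svep1, which encodes a large extracellular matrix protein, differed by 0.194, with means of 3933 ± 1253 and 10607 ± 1386. Ephb2, an ephrin receptor gene, differed by 0.200, with means of 202 ± 56.0 and 536 ± 40.5. In all 3 genes, as in Igf1, every GFP+ library was above every GFP- library.

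Neither receptor gene passed the test. Igf1r (ENSMUSG00000005533, chr7:67952827-68233668, plus strand), the signalling receptor of IGF1, had 1701, 1066, 1516 and 1217 normalised counts in GFP- replicates and 1340, 1309, 1292 and 1510 in GFP+ replicates. Each GFP+ value fell inside the GFP- range. The log2 fold change was -0.0041 (95% interval -0.38 to 0.37, DESeq2 adjusted p = 0.994), an interval that leaves out a change of 1 log2 unit in either direction. Its sign turned under other settings. Igf2r (ENSMUSG00000023830, chr17:12682406-12769664, minus strand), the clearance receptor, had 2618, 3077, 2703 and 2009 in GFP- and 2869, 3106, 3628 and 3299 in GFP+ replicates. The ranges overlapped through GFP- replicate 2 (log2 fold change 0.31, 95% interval -0.031 to 0.66, DESeq2 adjusted p = 0.303). Igf2r overlaps the antisense RNA gene Airn, and counting by strand limits but may not remove shared reads.

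The adaptor gene Irs2 (ENSMUSG00000038894, chr8:10984681-11008458, minus strand) had 2521, 2550, 3494 and 2800 normalised counts in GFP- replicates. In GFP+ replicates it had 4142, 3476, 4014 and 3776. The ranges met, since GFP- replicate 3, the shallowest library, lay just above the lowest GFP+ library. Means were 2841 ± 453 and 3852 ± 293 (SD, n = 4 each), 1.37-fold apart (log2 fold change 0.45 ± 0.16 SE, DESeq2 adjusted p = 0.0426). This call was close to the threshold and was lost under 14 of 21 other settings. With edgeR the adjusted p was 0.143 and with limma voom 0.00563. Left out in turn, GFP- replicates 1, 2 and 4 and all GFP+ replicates each ended the call (DESeq2 adjusted p 0.0581 to 0.178), and without GFP- replicate 3 it was 0.000710.

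**Figure D2:**
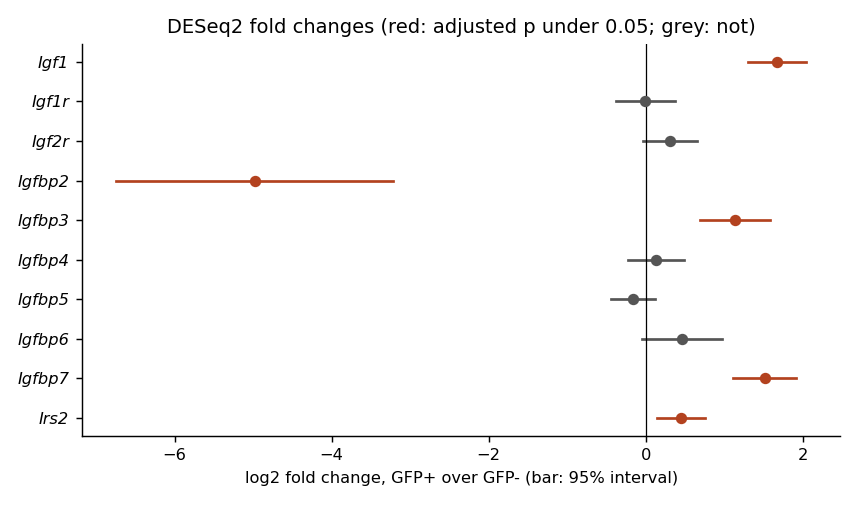
DESeq2 log2 fold change, GFP+ over GFP-, of the 10 genes with bars for the 95% interval, red where the adjusted p was under 0.05 and grey otherwise. Igf1 (1.67), Igfbp7 (1.52), Igfbp3 (1.14) and Irs2 (0.45) lie above 0, Igfbp2 (-4.98) lies far below with the widest bar, and the bars of the other 5 genes cross 0.

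Among the binding proteins, 2 rose, 1 fell and 3 were not called. Igfbp7 (ENSMUSG00000036256, chr5:77349240-77408041, minus strand) encodes a secreted protein of vessel and stromal matrix. It had 1591, 1825, 1769 and 1049 normalised counts in GFP- replicates and 4916, 3975, 4166 and 4691 in GFP+ replicates. The groups lay far apart, with means of 1559 ± 354 and 4437 ± 440 (SD, n = 4 each), a 2.86-fold difference (log2 fold change 1.52 ± 0.20 SE, DESeq2 adjusted p = 4.15e-11). Endothelial cells and pericytes also express Igfbp7. Of 9 endothelial markers 6 were tested and 0 called by DESeq2 (summed normalised count 1723 to 2956 in GFP- and 2088 to 3730 in GFP+ libraries), but they were not uniform. Cdh5, Tie1, Emcn, Egfl7 and Cldn5 had at most 44.0 normalised counts in any library, whereas Tek, Kdr, Pecam1 and Flt1 had means between 184 and 1379 in both groups. Kdr, which encodes a VEGF receptor, had means of 505 ± 168 and 1103 ± 697 (SD, n = 4 each; log2 fold change 1.14 ± 0.46 SE), which DESeq2 did not call (adjusted p = 0.107) and edgeR did (adjusted p = 0.000160). Of 9 pericyte and smooth muscle markers 1 was called higher and 1 lower (summed normalised count 771 to 1340 and 760 to 1673). This is 11.1% each, beside 4.66% and 4.76% of all genes tested. Abcc9, a potassium channel subunit gene, rose with Igfbp7, from 275 ± 162 to 589 ± 167 (log2 fold change 1.15 ± 0.41 SE, DESeq2 adjusted p = 0.0493), and Mcam fell from 222 ± 57.0 to 73.4 ± 28.04 (-1.60 ± 0.37 SE). The pericyte marker Rgs5 had means of 8.91 and 35.3 (log2 fold change 2.29 ± 1.28 SE) and was not called. The part of such cells in the Igfbp7 values was not tested.

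Igfbp3 (ENSMUSG00000020427, chr11:7206086-7213923, minus strand), whose product is the main IGF carrier of serum, had 564, 638, 934 and 847 normalised counts in GFP- replicates. In GFP+ replicates it had 1530, 1283, 1656 and 2007. All GFP+ libraries were higher than all GFP- libraries, with means of 746 ± 173 and 1619 ± 301 (SD, n = 4 each). The difference was 2.20-fold (log2 fold change 1.14 ± 0.23 SE, DESeq2 adjusted p = 2.46e-05). The median log2 fold change of the 9 fibroblast markers was 0.99. The part of a wider fibroblast shift in the Igfbp3 values was not tested. Igfbp1, its neighbour on chromosome 11 and a gene of liver, had 3 reads in GFP+ replicate 4 and 0 in the other 7 libraries.

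Igfbp2 (ENSMUSG00000039323, chr1:72824503-72852474, plus strand), a binding protein of fetal tissue, brain and many tumours, was the only member that fell. Its raw counts were 42, 46, 6 and 76 in GFP- replicates and 0, 0, 5 and 6 in GFP+ replicates, that is 170 reads of 40463783 against 11 of 80400520. Normalised, these were 57.0, 33.0, 65.9 and 39.9 against 0, 0, 3.84 and 2.01. No GFP+ library came near the lowest GFP- library (log2 fold change -4.98 ± 0.90 SE, DESeq2 adjusted p = 2.62e-06). Since 2 GFP+ libraries had no reads, the size of the fall is less certain than its direction, and it was -5.78 without GFP+ replicate 3 and -4.47 without GFP+ replicate 2, the extremes when single libraries were left out. Igfbp2 moved with the melanocyte and melanoma markers, all 10 of which were lower in GFP+ cells. The markers Sox10 and Pmel had log2 fold changes of -3.59 and -3.41. The highest sum of those markers in GFP- cells was in replicate 4 and the lowest in replicate 3, whereas Igfbp2 was highest in replicate 3. That Igfbp2 value rests on 6 reads, so its place in the order of replicates is uncertain. The part of melanoma RNA in the Igfbp2 values was not tested.

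The 3 other binding protein genes were not called. Igfbp5 (ENSMUSG00000026185, chr1:72857932-72874884, minus strand), the neighbour of Igfbp2 on chromosome 1, had 14225, 13962, 12152 and 15835 normalised counts in GFP- and 11258, 11825, 13048 and 14146 in GFP+ replicates. Its log2 fold change was -0.16 (95% interval -0.44 to 0.12, DESeq2 adjusted p = 0.580). Igfbp4 (ENSMUSG00000017493, chr11:99041244-99054392, plus strand), an inhibitor of IGF action that PAPP-A removes, had 4672, 3772, 4428 and 4375 against 5816, 4923, 4620 and 3527. Its log2 fold change was 0.13 (95% interval -0.23 to 0.49, DESeq2 adjusted p = 0.765). For both genes the interval leaves out a change of 1 log2 unit.

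Igfbp6 (ENSMUSG00000023046, chr15:102144362-102149511, plus strand), which prefers IGF2 to IGF1, had 6980, 7250, 5867 and 5052 normalised counts in GFP- replicates. In GFP+ replicates it had 11955, 8558, 9202 and 4901. Of the GFP+ libraries 3 were above every GFP- library and replicate 4 was below all of them. The log2 fold change was 0.46 (95% interval -0.049 to 0.97, DESeq2 adjusted p = 0.306). Leaving out GFP+ replicate 4 gave 0.65 and a call (DESeq2 adjusted p = 0.0194). For each other library left out, the adjusted p lay between 0.302 and 0.602.

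Levels between genes were compared per kilobase of merged exons. In GFP- cells the order of mean level was Igfbp6, Igfbp5, Igfbp7, Igfbp4, Irs2, Igf2r, Igfbp3, Igf1r, Igf1 and Igfbp2, from 5654 ± 916 down to 26.5 ± 8.21 normalised counts per kilobase (SD, n = 4). Neighbours whose ranges overlapped were Igfbp7 and Igfbp4, Igf2r and Igfbp3, and Igf1r and Igf1. In GFP+ cells Igfbp7 (3670 ± 364) stood above Igfbp5 (2093 ± 215), Igfbp3 (517 ± 96.3) above Igf2r (347 ± 34.5), and Igf1 (208 ± 32.8) above Igf1r (81.2 ± 5.98), with no overlap in any of these pairs. The one pair of neighbours that overlapped there was Irs2 (609 ± 46.3) and Igfbp3. With the length of the longest coding transcript in place of merged exons, 4 members changed place in the GFP- order and 3 in the GFP+ order. Only the crossing of Igfbp7 and Igfbp5 held with that length. Igf1 (289 ± 50.9) then stood above Igf1r (121 ± 25.2) and Igfbp3 (308 ± 71.6) above Igf2r (293 ± 49.8) in GFP- cells already, the latter pair with overlap.

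The summed level of the 6 binding protein genes was 11231, 11430, 10099.5 and 9331 normalised counts per kilobase in GFP- replicates. In GFP+ replicates it was 18497, 14477, 15471 and 12084. The ranges did not overlap, and the GFP+ mean was 1.44 times the GFP- mean. For the summed fibroblast markers that ratio was 1.57. Igfbp6 held the largest share in each library, 48.7% to 57.0% in GFP- and 36.5% to 58.1% in GFP+ cells. The share of Igfbp7 was 9.30% to 14.5% in GFP- and 22.0% to 32.1% in GFP+ cells. That of Igfbp5 was 20.03% to 28.3% in GFP- and 10.1% to 19.5% in GFP+ cells. The shares of these 2 genes did not overlap between groups, and Igfbp5 lost share without a called change in its own count.

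**Figure D3:**
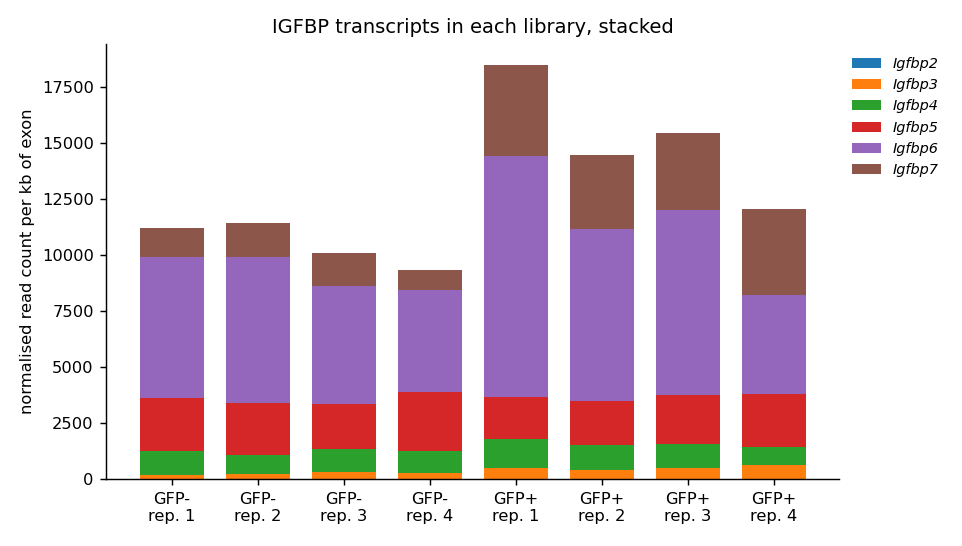
Normalised read count per kilobase of exon of the 6 binding protein genes, stacked, in each of the 8 libraries. The GFP+ bars are taller (12084 to 18497) than the GFP- bars (9331 to 11430), with a thicker Igfbp7 layer, and Igfbp2 is too low to be seen.

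The ligand rose more than the sum of its binding proteins. Per 100 units of summed binding protein level there were 0.554, 0.486, 0.824 and 0.709 units of Igf1 in GFP- replicates and 1.06, 1.31, 1.22 and 2.13 in GFP+ replicates, with no overlap. Igf1 per unit of Igf1r was 0.614, 0.876, 0.921 and 0.912 against 2.46, 2.44, 2.45 and 2.85. These values rest on the lengths used, and their ratio between groups hardly does. With the longest coding transcripts, Igf1 per 100 units was 2.06 to 3.47 in GFP- and 4.49 to 8.93 in GFP+ cells, and Igf1 per unit of Igf1r was 1.80 to 2.71 against 7.17 to 8.38. With merged exons, Igf1r per unit of Igf2r was 0.192 to 0.360 in GFP- and 0.197 to 0.259 in GFP+ cells, and these ranges overlapped. Transcript ratios say nothing of the amounts of secreted protein.

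The wider pathway was followed through 88 other genes in 5 lists. Of these, 79 had an adjusted p, and 9 were called higher and 5 lower. Their median log2 fold change was 0.16. The share called was 11.4% higher and 6.33% lower, beside 4.66% and 4.76% of all genes tested.

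The list of proteases that cleave binding proteins, with their inhibitors, had 12 genes. Of these, 9 were tested, 3 were called higher and 0 lower by DESeq2. The shares are 33.3% and 0%, beside 4.66% and 4.76% of all genes tested. Htra1, a secreted serine protease that cuts several IGFBPs, had 3464, 3436, 3417 and 3552 normalised counts in GFP- replicates. In GFP+ replicates it had 6545, 6173, 6227 and 5691. The replicates lay close together within each group and far apart between them (log2 fold change 0.83 ± 0.11 SE, DESeq2 adjusted p = 2.52e-11). Adam12, whose product can cut IGFBP3 and IGFBP5, is the gene behind the sort, so its difference is not independent of it. Its call was lost without GFP- replicate 3 or 4 or GFP+ replicate 2 or 4 (DESeq2 adjusted p 0.0689 to 0.117). Pappa2, whose product cuts IGFBP3 and IGFBP5, had 2.71, 25.1, 76.9 and 42.5 in GFP- and 55.5, 144, 249 and 131 in GFP+ replicates. The ranges overlapped (log2 fold change 2.15 ± 0.71 SE, DESeq2 adjusted p = 0.0325), and the call was lost without GFP- replicate 2 or 4 or GFP+ replicate 2, 3 or 4 (DESeq2 adjusted p 0.0618 to 0.211). Pappa, which encodes the IGFBP4 protease, had log2 fold change 1.10 ± 0.71 SE and was not called. Its inhibitors Stc1 and Stc2 had -1.49 ± 0.56 SE and -0.25 ± 0.57 SE, and were not called either. Stc1 rested on GFP- replicate 1, without which it was -0.70 (DESeq2 adjusted p = 0.481). Of all other settings it was called in 1, without GFP- replicate 4 (-1.77, DESeq2 adjusted p = 0.0343).

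Of 10 growth hormone axis genes 9 were tested, 3 were called higher and 0 lower by DESeq2, with a list median of 0.76. The shares are 33.3% and 0%, beside 4.66% and 4.76% of all genes tested. Ghr, the growth hormone receptor gene upstream of Igf1 in many tissues, had 1673, 1095, 2110 and 1264 normalised counts in GFP- and 3156, 2321, 2938 and 1913 in GFP+ replicates. GFP+ replicate 4 lay below GFP- replicate 3 (log2 fold change 0.76 ± 0.25 SE, DESeq2 adjusted p = 0.0297). Without GFP- replicate 2 or 4 or GFP+ replicate 1 or 3 that call was lost (DESeq2 adjusted p 0.0872 to 0.128). Socs3 and Socs1, which encode inhibitors of JAK signalling induced by many cytokines, did not overlap between groups. Socs3 had log2 fold change 0.73 ± 0.20 SE (DESeq2 adjusted p = 0.00534, limma voom adjusted p = 0.115). Socs1 had 0.93 ± 0.29 SE (DESeq2 adjusted p = 0.0173, limma voom adjusted p = 0.0525), a call lost without GFP- replicate 2 or GFP+ replicate 1 or 3 (0.0513 to 0.0783). Both answer to cytokines other than growth hormone, and the hormone itself was not measured.

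**Figure D4:**
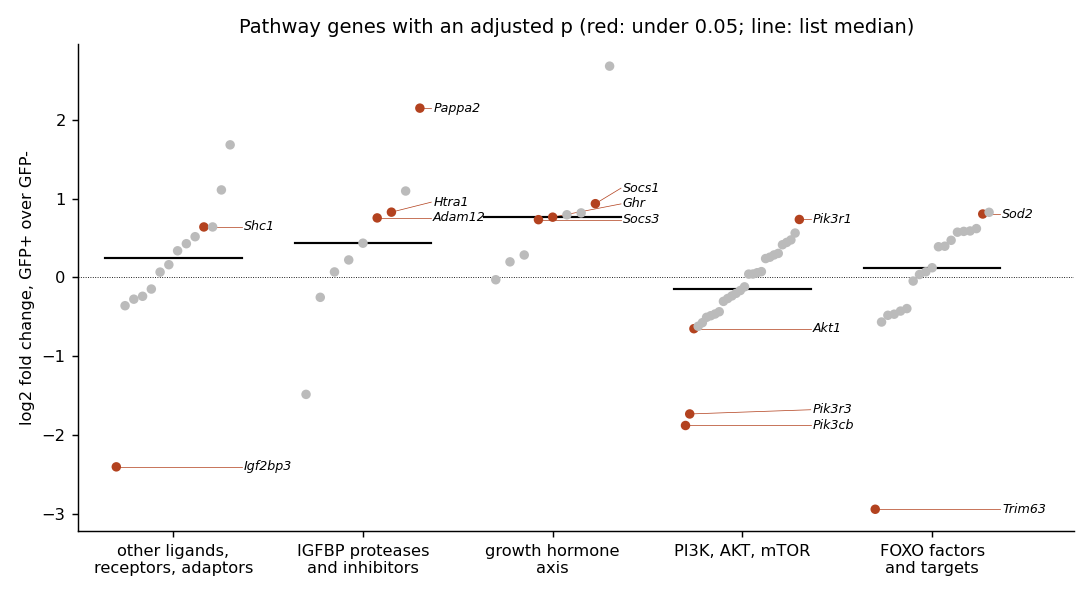
DESeq2 log2 fold change, GFP+ over GFP-, of the 79 tested genes of the 5 pathway lists, with called genes in red and named, the others in grey, and a line at each list's median. The medians of the proteases (0.43) and the growth hormone axis (0.76) lie above 0, and that of the PI3K, AKT and mTOR list lies at -0.14.

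Of 28 PI3K, AKT and mTOR genes all were tested, 1 was called higher and 3 lower. The shares are 3.57% and 10.7%, beside 4.66% and 4.76% of all genes tested. Pik3r1, the main regulatory subunit of PI3K, rose from 1536 ± 207 to 2537 ± 381 (SD, n = 4 each; log2 fold change 0.73 ± 0.18 SE, DESeq2 adjusted p = 0.000942). Akt1 fell from 2656 ± 434 to 1704 ± 174 (log2 fold change -0.65 ± 0.17 SE, DESeq2 adjusted p = 0.00309). The catalytic subunit gene Pik3cb fell with log2 fold change -1.88 ± 0.48 SE (DESeq2 adjusted p = 0.00217), and with edgeR its adjusted p was 0.0581. The regulatory subunit gene Pik3r3 fell with -1.73 ± 0.47 SE (DESeq2 adjusted p = 0.00514), and leaving out GFP- replicate 4 ended that call (0.0852). In GFP- cells Pik3r3 was highest in replicate 4 (648 normalised counts) and lowest in replicate 3 (176), the libraries with the highest and lowest sum of melanocyte and melanoma markers. Pik3cb did not follow that order, with 187 in GFP- replicate 3, its highest value, and 137 in replicate 4. In replicate 3, the shallowest library, 3 reads were worth 33.0 normalised counts, so its place in either order is uncertain. The part of melanoma RNA in the Pik3r3 and Pik3cb values was not tested.

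Of 19 genes for FOXO factors and their targets, 1 was called higher and 1 lower. This is 5.26% each, near the 4.66% and 4.76% of all genes tested. FOXO factors are held out of the nucleus by AKT. Sod2, the mitochondrial superoxide dismutase, rose with log2 fold change 0.80 ± 0.21 SE (DESeq2 adjusted p = 0.00253). Trim63, a ubiquitin ligase gene known from muscle, had 103, 105, 110 and 212 normalised counts in GFP- and 0, 32.2, 15.4 and 19.8 in GFP+ replicates (log2 fold change -2.94 ± 0.69 SE, DESeq2 adjusted p = 0.000654). With edgeR after filterByExpr its adjusted p was 0.0590. Its highest value was in GFP- replicate 4, the library with the highest sum of melanocyte and melanoma markers. That sum was lowest in GFP- replicate 3, where Trim63 was not lowest, though 3 reads there were worth 33.0 normalised counts. The part of melanoma RNA in the Trim63 values was not tested. Foxo1 had 0.59 ± 0.29 SE and Foxo3 0.12 ± 0.32 SE, and neither was called.

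Of the 19 remaining ligand, receptor and adaptor genes 14 were tested, 1 was called higher and 1 lower. This is 7.14% each, beside 4.66% and 4.76% of all genes tested. Shc1, an adaptor that links receptors to RAS, had log2 fold change 0.64 ± 0.21 SE (DESeq2 adjusted p = 0.0292), and with edgeR its adjusted p was 0.189. With the replicate number as a block it was 0.0529. Its call was also lost without GFP- replicate 1 or 4 or GFP+ replicate 2, 3 or 4 (DESeq2 adjusted p 0.0663 to 0.165). Igf2bp3, an RNA-binding protein gene of fetal tissue and tumours that targets Igf2 mRNA and is no IGF binding protein, had 61.1, 151, 87.9 and 188 normalised counts in GFP- and 15.3, 13.4, 9.22 and 54.0 in GFP+ replicates. It fell by 2.41 on the log2 scale (SE 0.64, DESeq2 adjusted p = 0.00360). Leaving out GFP- replicate 4 ended that call (0.0661), and without GFP+ replicate 4 the log2 fold change was -3.31. In both groups Igf2bp3 was highest in replicate 4, the library with the highest sum of melanocyte and melanoma markers (74149 and 11739). Among GFP- libraries Igf2bp3 was lowest in replicate 1, whereas that sum was lowest in replicate 3. The part of melanoma RNA in the Igf2bp3 values was not tested. The insulin receptor gene Insr had 0.16 ± 0.25 SE and Irs1 0.43 ± 0.22 SE, and neither was called. Igfals, which encodes the third partner of serum IGF complexes, had 0 reads in all GFP- libraries and 2, 1, 25 and 25 reads in GFP+ replicates, with no adjusted p.

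Igf2 is listed at 0 reads in all 8 libraries. An annotated gene on the same strand, Gm49394, overlaps Igf2 over 16048 bases and is listed at 0 as well, under another name. Reads that fall in exons of both can be assigned to neither, so that the level of the second ligand could not be read from this table. The imprinted neighbour H19 had reads in every library.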

How the data were processed

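RNA was extracted from sorted cells, and libraries were made with a SMARTer kit for small inputs that keeps strand. Per the labels and the study's methods, the authors trimmed reads with cutadapt 3.4, mapped them to GRCm38 with STAR 2.7.3a and deposited raw counts per Ensembl gene, made by featureCounts 2.0.1 with strand. Reads without molecular identifiers are not independent molecules, so counting error is a lower limit. The authors also deposited a normalised score per library, the count over its size factor; scores recomputed here matched within rounding. Columns with the authors' fold changes and p-values were not used.

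DESeq2 1.42.0 (R 4.3.3) was run on 29043 genes with a read, with group as the only term, two-sided Wald tests, independent filtering and Cook's filter, and Benjamini-Hochberg adjustment over all 15283 genes left. Calls were made under 0.05. Alternatives were edgeR 4.0.16, limma 3.58.1 (voom), other size factors and filters, thinning to 883144 reads, and each library left out; both tests with filterByExpr were chosen after seeing the data. Code was tested on simulated data. Of 53801 gene IDs, 53620 were found in GENCODE M21. Promoters came from RefSeq (GRCm38.p6). Members and lists were chosen with earlier results of these data known. Genes named were all members, the called genes of each list (at most 3 per list and direction) and a set named whatever its values; H19, Gm49394, Socs2, Rictor and the endothelial, pericyte and adipocyte markers other than Pecam1 and Rgs5 were added after their values were seen. Replicates of a group differed beyond sampling noise (chi-square per degree of freedom 9.68 to 73.0). The labels give no batch.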

Additional observations from a re-analysis of the deposited data

Results flagged for a closer look

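In 88 groups of 4 libraries tested for a library that stands apart (by Dixon's ratio of the gap to the nearest library over the range), 11 were past the limit, and chance gives about 1 in 20 groups. GFP+ replicate 4 stood apart in 5 of them. Igf1 was at 2543 normalised counts (others 1864 to 1943), Igf2bp3 at 54.0 (others 9.22 to 15.3), the Igfbp7 share of the binding protein sum at 32.1% (others 22.0% to 22.7%) and Igf1 per unit of Igf1r at 2.85 (others 2.44 to 2.46). That library also had the lowest Igfbp6 count of the GFP+ libraries. The fifth was Igfbp1, at 1.01 there and 0 in the others, which puts it past the limit by construction, and it rests on 3 reads.

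In GFP+ replicate 1, Pappa was at 11.1 normalised counts (others 89.9 to 96.8) and Igfbp7 per unit of Igfbp5 was at 2.17 (others 1.59 to 1.67). In GFP- replicate 1, Stc1 was at 206 (others 39.9 to 65.9) and Igf1 per unit of Igf1r at 0.614 (others 0.876 to 0.921). In GFP- replicate 4, Trim63 was at 212 (others 103 to 110) and the Igfbp5 share was 28.3% (others 20.03% to 21.1%).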

How the results depend on the processing

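Igf1, Igfbp2, Igfbp3 and Igfbp7 kept their direction and call under all 21 other settings, and Irs2 under 7. The count of members called higher was 3 or 4 and the count called lower was 1 in each setting; with each library left out they ran from 3 to 4 and stayed at 1. The labels do not say whether libraries with the same replicate number were paired. Correlations of same-numbered deviations were 0.050, -0.16, -0.12 and 0.26 over 8812 genes, which cannot exclude pairing. The replicate block left 4 members called higher and 1 lower, with 9 and 6 other pathway genes. With that block in DESeq2, Shc1 lost its call (adjusted p = 0.0529) while Socs2 (0.0493, higher) and Rictor (0.00198, lower) gained one.

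Pathway genes called higher numbered 9 as reported, 5 with limma voom, 4 with an adjusted p under 0.01, 1 with a log2 fold change of 1 or more in size, and 5 to 10 with each library left out, 5 without GFP- replicate 4 or GFP+ replicate 3. With edgeR after filterByExpr 4 were higher and 2 lower, against 5 lower as reported and 4 to 7 with each library left out. Over all genes that setting called 732, edgeR without it 1269, limma voom 938 and DESeq2 1439. Without division by length, the GFP+ to GFP- ratio of share was 0.917 for Igfbp4 (0.753 as reported) and 1.15 for Igfbp6 (0.941). With the longest coding transcript, 4 members changed place in the GFP- order and 3 in the GFP+ order, since their lengths differ.

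Values near 0 turned sign. For Igf1r the log2 fold change was 0.0062 with edgeR, 0.0043 with edgeR after filterByExpr, 0.15 with limma voom, 0.099 with limma voom after filterByExpr, 0.0093 with TMM factors, 0.015 with the replicate block, and from -0.12 to 0.13 with each library left out. Igfbp4 was -0.020 and Foxo3 -0.011 with limma voom. Foxo3 ran from -0.25 to 0.34 with each library left out. With libraries thinned to the shallowest, Insr was -0.071 and Stc2 0.71. Beyond those named here, the cause was not tested. Depth limits genes with few reads, such as Igfbp2, Igfals and Igfbp1: 3 reads were worth 1.01 to 33.0 normalised counts.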
